A study of Mus musculus with 3 samples.

Results

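Mx1 and Mx2 are the 2 Mx GTPase genes of the mouse, out of 55536 annotated genes and 22028 protein-coding genes measured. They were taken by gene name from the GENCODE M21 annotation, together with their 15 annotated transcripts (10 of Mx1 and 5 of Mx2). The pair was chosen by its TPM in these libraries, where Mx1 has the highest mean of any protein-coding gene, so the levels and ranks below are descriptions and carry no test. The RNA came from the chromatin fraction of bone-marrow-derived macrophages of C57BL/6J mice and was depleted of ribosomal RNA. There was 1 group: cells given Lipid A, the membrane anchor of bacterial lipopolysaccharide, at 100 ng/ml over 12 h, washed and left without it over 12 h, and given 100 ng/ml again for 25 min. The 3 libraries are biological replicates 1, 2 and 3 of that group, made from 1 µg, 250 ng and 500 ng of RNA. The labels list the same donor identifier for all 3 and do not say that they came from separate animals, so each SD (n = 3) is the spread between these libraries, and no comparison with untreated or once-treated cells could be made.

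Mx proteins are large GTPases related to dynamin, made in response to type I and type III interferon. In that response the receptor-bound kinases Jak1 and Tyk2 phosphorylate Stat2, which joins Irf9 within ISGF3, a transcription factor complex that binds the promoters of interferon-stimulated genes. Macrophages that sense Lipid A through Tlr4 make interferon beta, which acts back on the same cells. Mouse Mx1 is a nuclear protein known for blocking influenza viruses, and Mx2 is a cytoplasmic protein known for blocking vesicular stomatitis virus. C57BL/6 and most other inbred strains carry a deletion of coding exons in Mx1 and a disrupted reading frame in Mx2, and so make neither protein in working form.

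The 2 genes lie on chromosome 16 of mm10, 72400 bases apart and on opposite strands. Mx1 (ENSMUSG00000000386.15) runs from 97447035 to 97462907 on the minus strand, and GENCODE M21 types it protein-coding. Mx2 (ENSMUSG00000023341.15) runs from 97535308 to 97560900 on the plus strand and is typed as a polymorphic pseudogene. RefSeq, on GRCm38.p6, types both as transcribed pseudogenes. No other annotated gene overlaps either one.

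The disrupted reading frames can be read from the annotated transcripts. From exon 3 on, Mx1-205 shares 6 consecutive exon lengths (193, 138, 155, 139, 199 and 79 bases) with Mx2-202. After the 79-base exon Mx2-202 goes on with exons of 123, 143 and 159 bases before one of 77 bases, whereas Mx1-205 goes from its 79-base exon directly to an exon of 77 bases (97451475 to 97451551). The lines below show the 24 bases before and the 45 bases after the junction into that 77-base Mx1 exon in 3 transcripts, from GENCODE M21, with the first in-frame stop codon in capitals where the window holds it.
Mx1-205: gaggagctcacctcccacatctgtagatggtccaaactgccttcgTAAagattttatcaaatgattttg
Mx1-210: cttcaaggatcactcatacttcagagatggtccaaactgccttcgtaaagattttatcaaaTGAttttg
Mx1-202: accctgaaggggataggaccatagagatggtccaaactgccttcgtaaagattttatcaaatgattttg
The 3 sequences are the same after the junction and are read in 3 frames, because the exons skipped before it differ. Mx1-205 reaches TAA 21 bases into the exon, after 309 codons. Mx1-210 skips the 79-base exon and reaches TGA 37 bases in, after 288 codons. Both stops lie 2 exon junctions before the end of the transcript (311 and 295 bases ahead of the last one), and GENCODE types both transcripts as targets of nonsense-mediated decay, the pathway that destroys mRNAs whose stop lies upstream of an exon junction. Mx1-202 skips the 199- and the 79-base exons, has no stop in the window, and ends after 397 codons in the last exon.

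In the annotated models Mx2-202 and Mx2-201 the frame differs at a single junction, between exons 10 and 11. The lines below show the same window around that junction in the 2 near-identical transcripts, again with the in-frame stop in capitals.
Mx2-202: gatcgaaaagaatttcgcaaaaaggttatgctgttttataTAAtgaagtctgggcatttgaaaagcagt
Mx2-201: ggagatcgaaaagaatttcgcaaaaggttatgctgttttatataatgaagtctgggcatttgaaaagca
In Mx2-202, exon 10 has 143 bases (97551924 to 97552066) and exon 11 has 159 (97555961 to 97556119), and the frame meets TAA 16 bases into exon 11, after 423 codons. In Mx2-201 these exons are annotated with 140 and 161 bases (to 97552063 and from 97555959), the same letters are read in another frame, and the reading frame runs to 655 codons with its stop in the last exon. Mx2-202 holds 6 exonic bases that Mx2-201 lacks, 3 of them at the outer ends, and Mx2-201 holds 2 that Mx2-202 lacks, so away from the ends the 2 models differ only at that junction. In the joined sequence the run of A at the junction is shorter in Mx2-201. Whether the models differ by a splice choice or by the genomic sequence they were built on was not tested.

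**Figure D1:**
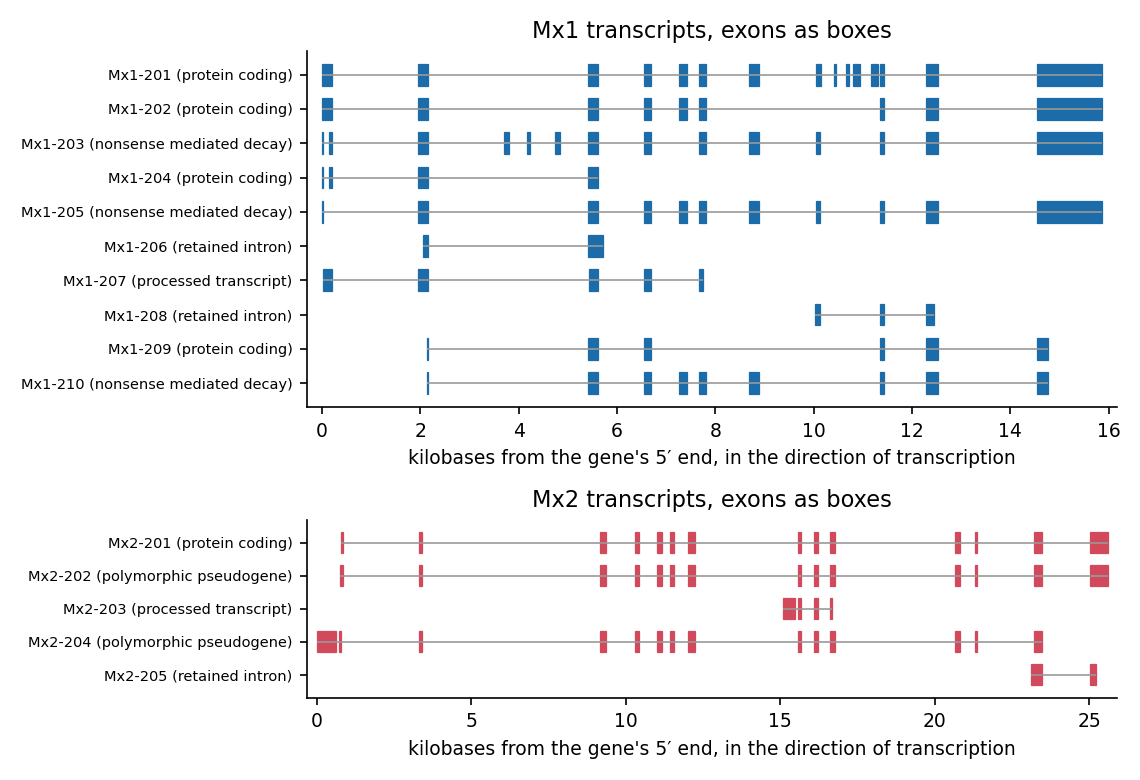
Exons (boxes) and introns (lines) of the 10 Mx1 and 5 Mx2 transcripts of GENCODE M21, drawn to scale in kilobases from each gene's 5′ end. Mx1-201 differs from Mx1-205 by extra exons ahead of the 77-base exon, Mx1-203 by 4 extra exons near its 5′ end, and Mx1-206 and Mx1-208 are short fragments.

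Mx1 had the highest mean level of the 22028 protein-coding genes on chromatin in these macrophages. Mx2, which GENCODE does not count among them, would have lain 152nd if placed in that ranking. Levels are given as TPM, an abundance per transcript length that sums to the same total in each library. The deposited data hold 2 quantifications of each library: the first has gene and transcript tables, and the second has transcripts only, summed here per gene. In replicates 1, 2 and 3 Mx1 stood at 2605, 1530 and 1170 TPM, a mean of 1768 ± 746 TPM (SD, n = 3). These values rest on 48000, 41001 and 28801 expected counts, read numbers that the first quantification apportions between transcripts. Mx2 stood at 346.4, 187.0 and 125.0 TPM in the same order, a mean of 219.5 ± 114 TPM, on 6579, 4307 and 3555 expected counts. Both genes were highest in replicate 1 and lowest in replicate 3, and the lowest Mx1 value exceeded the highest Mx2 value. In bulk RNA such as this, fewer cells transcribing a gene and less RNA per cell cannot be told apart.

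The ratio of the 2 genes varied less than either gene. Mx1 exceeded Mx2 7.52-fold in replicate 1, 8.18-fold in replicate 2 and 9.37-fold in replicate 3, which is a difference of 3.05 ± 0.16 (SD, n = 3) on the log2(TPM + 1) scale. The second quantification gave Mx1 3688, 1910 and 1426 TPM and Mx2 550.4, 237.4 and 170.0 TPM. Its log2 difference was 2.94 ± 0.17. It assigned more reads than the first: 1.53 to 1.79 times as many over all genes, 1.61 to 1.79 times as many to Mx1 and 1.90 to 2.21 times as many to Mx2.

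**Figure D2:**
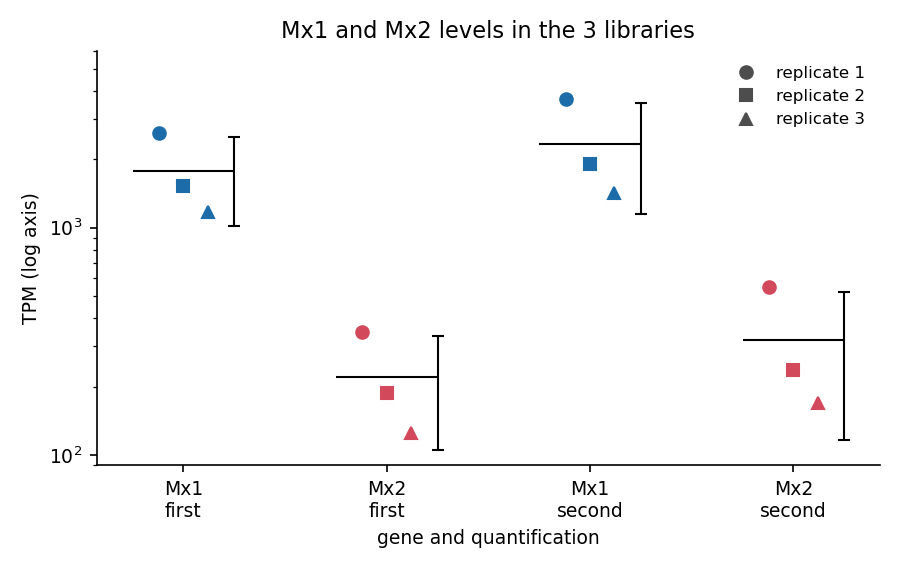
TPM (log axis) of Mx1 and Mx2 in each library under the first and the second quantification, with the mean (line) and SD (bar) of the 3 libraries. Mx1 lies between 1170 and 2605 TPM and Mx2 between 125.0 and 346.4 TPM in the first quantification, and both are highest in replicate 1.

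Among protein-coding genes Mx1 ranked 1st in replicates 1 and 2. In replicate 3 it ranked 3rd, after H2-K1 (1401 TPM), a class I major histocompatibility gene with near-identical relatives, and Lilrb4a (1340 TPM), an inhibitory receptor gene. By mean, H2-K1 came next at 1472 ± 239 TPM, which lies within 1 SD of Mx1, so the order of the top genes does not exceed the spread between libraries. With all annotated genes of at least 300 bases counted, noncoding ones included, Mx1 was 13th.

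Placed among the protein-coding genes, Mx2 ranked 86th, 177th and 312th in replicates 1, 2 and 3. Next above its mean were the protein-coding genes Ccdc9 (222.6 ± 19.0 TPM), Sfpq (222.4 ± 25.7), a nuclear RNA-binding protein, Ogt (221.4 ± 21.7), the O-GlcNAc transferase, and the actin crosslinker gene Flna (220.6 ± 43.1). The 5 next below were the class I histocompatibility gene H2-Q4 (218.1 ± 27.9 TPM), Eif4g2 (218.1 ± 61.6), a translation factor, Nxf1 (217.5 ± 10.3), the mRNA export receptor, Nfxl1 (217.4 ± 78.4) and Nckap1l (215.8 ± 22.8), an actin regulator of blood cells. These genes were picked as the nearest to Mx2 by mean, so their lying within its SD is not a result. In all, 294 protein-coding genes had a mean between the lowest and the highest Mx2 library.

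Both members varied more between the 3 libraries than most genes did. The coefficient of variation (CV, the SD as a percentage of the mean) was 42.2% for Mx1 and 52.1% for Mx2. Over the 9689 protein-coding genes detected, meaning at least 1 TPM in every library (44.0% of protein-coding genes), the median CV was 16.5%. The CV was lower than that of Mx1 in 95.1% of these genes and lower than that of Mx2 in 98.2%. Without replicate 1 the CVs were 18.8% and 28.1%, so much of the spread in TPM lay between that library and the others, and the rank of Mx2 by mean became 230.

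Relative to its own mean on the log2(TPM + 1) scale, Mx1 deviated by 0.64 in replicate 1, −0.13 in replicate 2 and −0.51 in replicate 3. For Mx2 the deviations were 0.78, −0.10 and −0.68. The median deviation of the detected genes stayed close to 0, at 0.02, 0.02 and −0.04. In the second quantification that median was 0.16, −0.13 and −0.03. In the first, the deviation of Mx1 in replicate 1 was above that of 98.4% of detected genes and that of Mx2 above 99.4%. In replicate 3 only 0.981% and 0.237% lay lower. A detected protein-coding gene was highest in replicate 1 and lowest in replicate 3, as both members were, in 19.4% of cases (20.4% in the second quantification). Library traits differed as well: replicate 1 had the most input RNA, 13502401 expected counts against 17848798 and 17824176, and 11.1% of its counts in the ribosomal RNA locus of chromosome 17 against 31.7% and 24.8%. With that locus left out of the total, Mx1 had 4000, 3366 and 2150 CPM (counts relative to the library total, with no division by length) and Mx2 548.3, 353.5 and 265.3, again highest in replicate 1 and lowest in replicate 3. On that scale the CVs were 29.6% for Mx1 and 37.2% for Mx2. Replicate 1 exceeded replicate 2 1.19-fold for Mx1 and 1.55-fold for Mx2. Replicate 2 exceeded replicate 3 1.57-fold and 1.33-fold, so there the larger step of Mx1 was to replicate 3. The part of input amount and of library make-up in the spread was not tested.

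**Figure D3:**
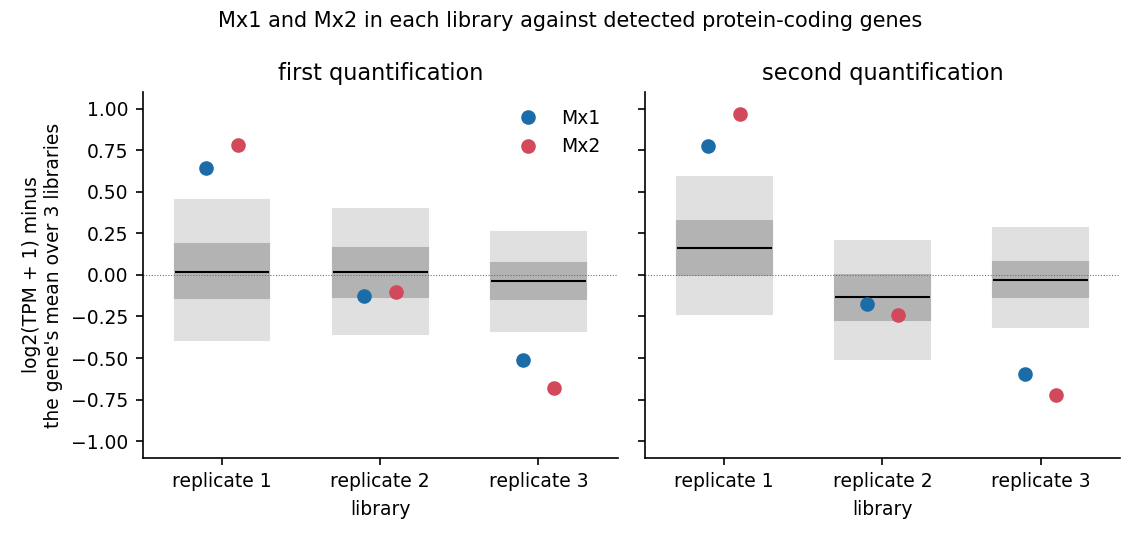
Log2(TPM + 1) of Mx1 (blue) and Mx2 (red) in each library minus the gene's own mean over the 3 libraries, under both quantifications, over the 5th to 95th (light grey) and 25th to 75th (dark grey) percentile and the median (line) of detected protein-coding genes. Both genes lie above the light band in replicate 1 and under it in replicate 3.

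The genes whose values over the 3 libraries ran most like those of each member were found by the Euclidean distance between centred log2(TPM + 1) values, among protein-coding genes with a mean of at least 10 TPM (5106 besides Mx1). All genes are read in the same 3 libraries, so they share each library's depth and make-up, and the distance is only a description. Nearest to Mx1 were Tmcc3 (distance 0.04), at 114.9, 64.7 and 50.3 TPM, the interferon-induced Schlafen gene Slfn1 (0.05), Glrx (0.06), a glutaredoxin, Ms4a4b (0.07) and the olfactory receptor gene Olfr99 (0.08). Nearest to Mx2 were Cp (0.08), the copper-carrying ferroxidase ceruloplasmin, at 162.6, 92.7 and 62.6 TPM, and Tgtp2 (0.09), an interferon-induced GTPase, at 101.8, 50.3 and 36.1 TPM. Also among the 5 nearest were Ms4a4b (0.15) and Usp18 (0.17), whose product removes Isg15 and shuts down the interferon receptor. The distance between Mx1 and Mx2 was 0.22, which placed Mx1 13th of 5107 genes in likeness to Mx2, and Mx2, added to the others, 76th of 5107 in likeness to Mx1. Under the second quantification Tgtp2 and Usp18 were again among the 5 nearest to Mx2, at places 1 and 4, and none of the 5 listed for Mx1 was among its 5 nearest.

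Most Mx1 reads were assigned to transcripts that GENCODE types as targets of nonsense-mediated decay. In the first quantification these held 76.7%, 87.9% and 85.3% of the Mx1 expected counts in replicates 1, 2 and 3, and in the second 58.4%, 64.8% and 68.6% of its estimated counts. In every library and in both quantifications this class held more counts than any other. Over the 2329 protein-coding genes with at least 5 TPM in every library and with both a coding and a decay transcript annotated, the median share of the class was 2.90% of counts, and 99.7% of the other genes were under Mx1 (6.64% and 98.2% in the second quantification). By TPM the shares of Mx1 were smaller, at 50.5%, 63.5% and 56.7% in the first quantification. In the second they were 39.1%, 42% and 42.3% in replicates 1, 2 and 3. The retained-intron class was higher there, at 40.1%, 43.9% and 43.8%. The median share of the decay class by TPM was 5.30% over the same genes, and 98.5% of them were under Mx1 (9.44% and 94.2% in the second quantification).

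The transcripts named differed between the quantifications. In the first, Mx1-205 led by far, with 25893, 29242 and 18467 expected counts, or 63.1 ± 8.7% of the gene (SD, n = 3). In the second, Mx1-205 had 5.39 ± 4.0% of the counts, and Mx1-203 led with 29645, 30192 and 18957, or 39.6 ± 2.4%. Mx1-203 and Mx1-205 both carry the 199-, 79- and 77-base exons in a row and share every junction from there to the end. Mx1-203 lacks the 155-base exon and has 4 extra exons upstream, and its frame closes after 165 codons. Summed, the 2 transcripts had 29123, 32688 and 20519 counts in the first quantification and 30228, 35936 and 22485 in the second. The summed counts of the 2 quantifications thus lay within 10% of each other in each library, while their division between the 2 transcripts did not. As a share of all Mx1 counts, which were higher in the second, the sum was 70.6 ± 9.5% in the first and 45 ± 6.4% in the second.

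A second difference concerned Mx1-201, a protein-coding model with a frame of 627 codons. It received 216.5, 644.3 and 323.3 counts in the first quantification (1.05 ± 0.56% of the gene) and 25750, 20493 and 10832 in the second (27.8 ± 4.3%). Of its 3385 bases, 414 lie in no other Mx1 transcript. These bases fall between the 79-base and the 77-base exon of Mx1-205, in what is intron there. The coding transcript Mx1-202, shown above without a stop in its window, moved the other way. It had 8685, 3266 and 2823 counts in the first quantification (12.0 ± 5.4%) and 0.59 ± 0.22% of counts in the second. Which quantification divides these reads better was not tested. Whether the reads given to Mx1-201 came from its spliced exons or from unspliced RNA of other models was not tested either.

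Mx1-210, which skips only the 79-base exon, had a more even share in both, at 12.8 ± 4.1% of counts in the first quantification and 18.9 ± 2.7% in the second. Mx1-206 and Mx1-208, of 409 and 352 bases, are typed as retained introns. Together they held 4.61%, 2.39% and 3.43% of the counts in replicates 1, 2 and 3 but 38.7%, 29.5% and 35.9% of the TPM, because division by a short length raises the value per count. Over 4726 genes with transcripts of this type the median share was 46.0% of TPM, and Mx1 lay above 31.1% of them. By counts the median share was 29.2%, and Mx1 lay above 7.64% of them. The retained-intron share of Mx1 was thus not high among genes of this chromatin fraction. The other transcripts of Mx1 (Mx1-204, Mx1-207 and Mx1-209) each had under 0.5% of counts in the first quantification by mean, and in the second the mean share was 1.79% for Mx1-207 and lower for the other 2.

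By counts, most of Mx2 was assigned to the transcript with the early stop, Mx2-202, in both quantifications. Mx2-202 had 5711, 3723 and 3261 expected counts in the first, or 86.8%, 86.4% and 91.7% of the gene, and 85.3%, 84.0% and 88.6% in the second. By TPM its share was 55.9%, 56.9% and 69.5% in the first and 53.7%, 53.6% and 59.6% in the second. Mx2-201, the transcript with the long frame, had 28.3 counts in replicate 1 and 0 in replicates 2 and 3. The posterior SD given with these values was 14.6, 9.85 and 7.85 counts. In the second quantification Mx2-201 had 9.97, 27.4 and 0 counts, or 0.0758%, 0.288% and 0% of the gene. The depth alone therefore sets no upper limit on this transcript, whose reads are apportioned between near-identical models. Mx2-204, which starts upstream and has the same early stop after 423 codons, held 2.08 ± 1.2% of the counts in the first quantification. The fragments Mx2-203 and Mx2-205 had 6.19 ± 1.5% and 3.25 ± 1.8% of the counts but 22.3 ± 4.6% and 15.5 ± 6.3% of the TPM.

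**Figure D4:**
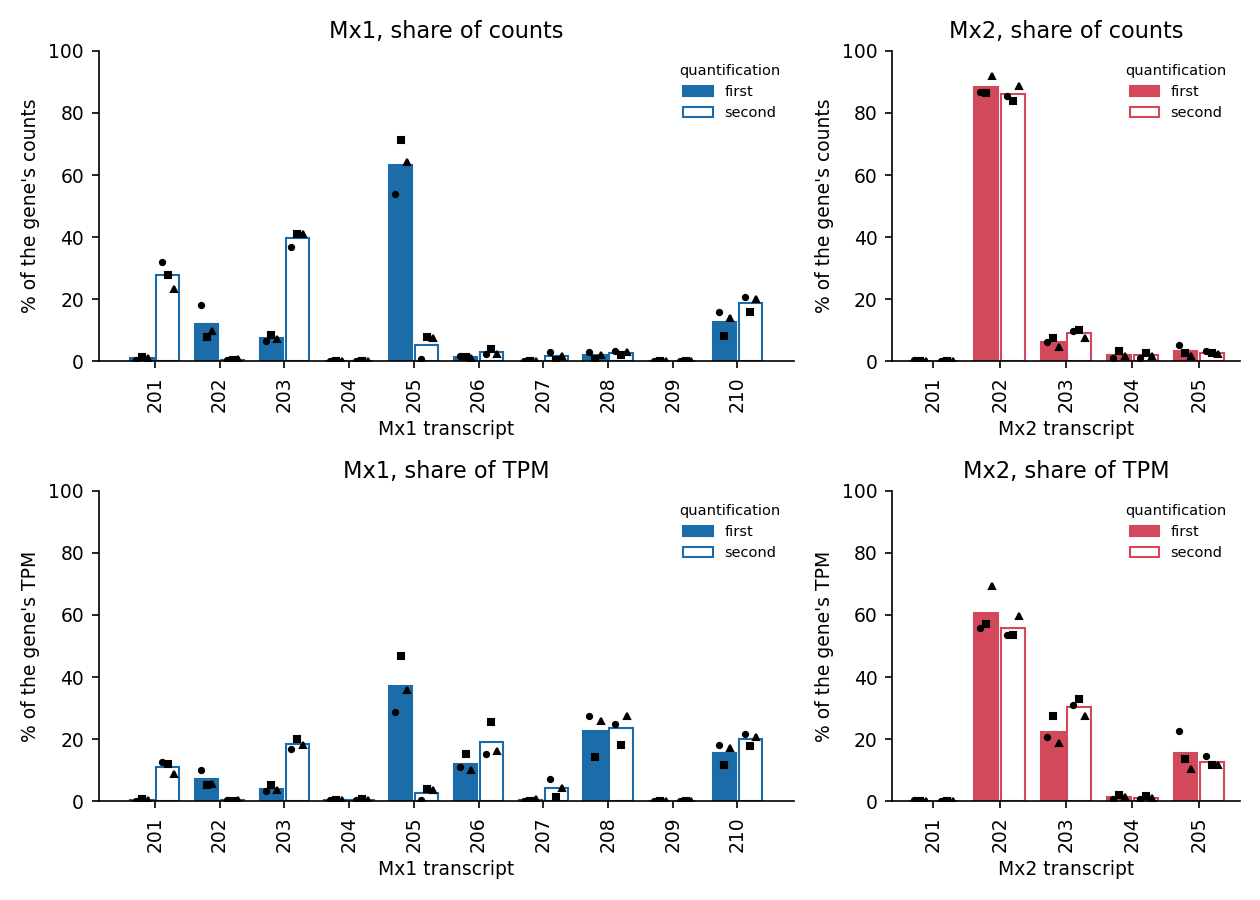
Share of each gene's counts (top) and TPM (bottom) assigned to each annotated transcript of Mx1 and Mx2 in the first (filled) and second (open) quantification, as the mean of 3 libraries (bar) with replicates 1 (circle), 2 (square) and 3 (triangle). Mx2-202 leads in all 4 Mx2 series, whereas the leading Mx1 transcript by counts is Mx1-205 in the first and Mx1-203 in the second quantification.

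Because the 2 genes are alike in sequence, reads could be exchanged between them. Mx1-205 and Mx2-202 aligned over 923 bases with 94.8% identity, and their longest identical stretch, in the part of the frame that both genes share before the disruptions, was 140 bases.
Shared stretch: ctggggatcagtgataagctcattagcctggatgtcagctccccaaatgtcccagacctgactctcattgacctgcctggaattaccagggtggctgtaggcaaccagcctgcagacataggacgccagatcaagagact
Of all 50-base windows of Mx2-202, 6.70% also occur in an Mx1 transcript, and of those of Mx1-205, 5.80% occur in an Mx2 transcript. The posterior SD that the first quantification gives for the gene count was the same for both genes in each library, at 3.47, 2.41 and 2.64 counts, against at least 3555 counts for either gene. Within Mx1 the same quantity was larger, at 301.8, 213.4 and 193.5 counts for Mx1-205. The apportioning was thus far less certain between the transcripts of Mx1 than between the 2 genes, by that program's own estimate.

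In the first quantification the interferon genes listed here were at or near 0, while the genes of the type I interferon receptor and its signal were present. Of 20 interferon genes, Ifng (interferon gamma) included, 16 had 0 TPM in every library, and 1 was detected, against 44.0% of protein-coding genes. Ifnb1, interferon beta, had 2.49, 0.25 and 0.57 TPM on 18, 2 and 5 counts. Ifnk, interferon kappa, was the detected one at 1.63, 1.02 and 1.03 TPM. In the second quantification 2 were detected, Ifnk and Ifna16, an interferon alpha gene of a family with near-identical members, which had 6.34, 2.01 and 3.99 TPM there and 0, 0.08 and 0.08 TPM in the first. Ifnlr1, the chain specific to the type III interferon receptor, had 0 counts in every library, which for counting error alone allows up to 3 counts or 0.168 to 0.222 CPM, and was at 0.76 ± 0.16 TPM in the second quantification. Il10rb, the chain that this receptor shares with the interleukin 10 receptor, stood at 57.5 ± 7.0 TPM.

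All 7 genes of the type I receptor and ISGF3 axis were detected, against 44.0% of protein-coding genes. The receptor chains Ifnar1 and Ifnar2 stood at 74.0, 66.6 and 54.6 TPM and at 54.6, 50.2 and 38.5 TPM. The kinases Tyk2 and Jak1 stood at 84.5 ± 10.4 and 32.6 ± 4.4 TPM. Of the ISGF3 genes, Stat2 had 700.7, 607.2 and 447.8 TPM and Irf9 had 40.9, 41.6 and 37.2 TPM. Stat2 lay above Mx2 and under Mx1 in every library, with the Mx1 mean 3.02 times its own. Of the 7 genes 4 were highest in replicate 1 and lowest in replicate 3, as were Mx1, Mx2 and 19.4% of detected protein-coding genes, but their median CV of 15.1% was near the 16.5% of detected genes.

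Of 7 interferon regulatory factor genes that act upstream of interferon, 6 were detected, against 44.0% of protein-coding genes. Irf1 was the highest at 612.8, 246.8 and 374.4 TPM, followed by Irf7 at 410.3, 297.2 and 237.9 TPM and Irf2 at 143.5 ± 36.0 TPM. Irf3, the factor that Tlr4 activates through Trif, had 71.6 ± 17.6 TPM, and Irf4 was not detected.

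The 10 dynamin superfamily genes listed here besides the Mx pair were lower and steadier. That list leaves out the guanylate-binding proteins, which are given below. Of its 10 genes 8 were detected in the first quantification, against 44.0% of protein-coding genes, and 10 in the second, against 53.7%. Dnm2, the dynamin of endocytosis in most cells, was the highest of the 10 at 118.9, 129.7 and 116.4 TPM, so Mx1 lay above it in every library. Mx2 also lay above it in every library, though by less than 10 TPM in replicate 3. Dnm1l, which divides mitochondria, had 60.6 ± 7.0 TPM, Opa1, which fuses their inner membranes, 35.0 ± 3.7, and Atl3, which fuses endoplasmic reticulum tubules, 25.3 ± 3.9 TPM. Neuronal Dnm1 and Dnm3 had means of 1.25 and 1.13 TPM and missed the limit of 1 TPM in 1 library each. The median CV of the 8 detected genes was 12.6%.

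The other interferon-induced GTPases, guanylate-binding proteins and immunity-related GTPases that act against pathogens inside cells, varied more like the Mx pair. Of 18 genes 16 were detected, against 44.0% of protein-coding genes, and the median CV of the 16 was 39.6%. Iigp1 was the highest at 455.8, 187.9 and 120.9 TPM, and its mean of 254.9 ± 177 TPM lay above that of Mx2 by less than the spread. Gvin1 followed at 185.9, 120.4 and 127.0 TPM, Gbp5 at 260.6, 68.3 and 94.1 TPM and Gbp6 at 175.2, 88.1 and 102.2 TPM. All 4 were highest in replicate 1, and the lowest library was replicate 3 for Iigp1 and replicate 2 for the other 3. Of the 16 detected genes 9 were highest in replicate 1 and lowest in replicate 3, against 19.4% of detected protein-coding genes. Tgtp1 and Tgtp2 are near-identical copies, and their values are uncertain.

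**Figure D5:**
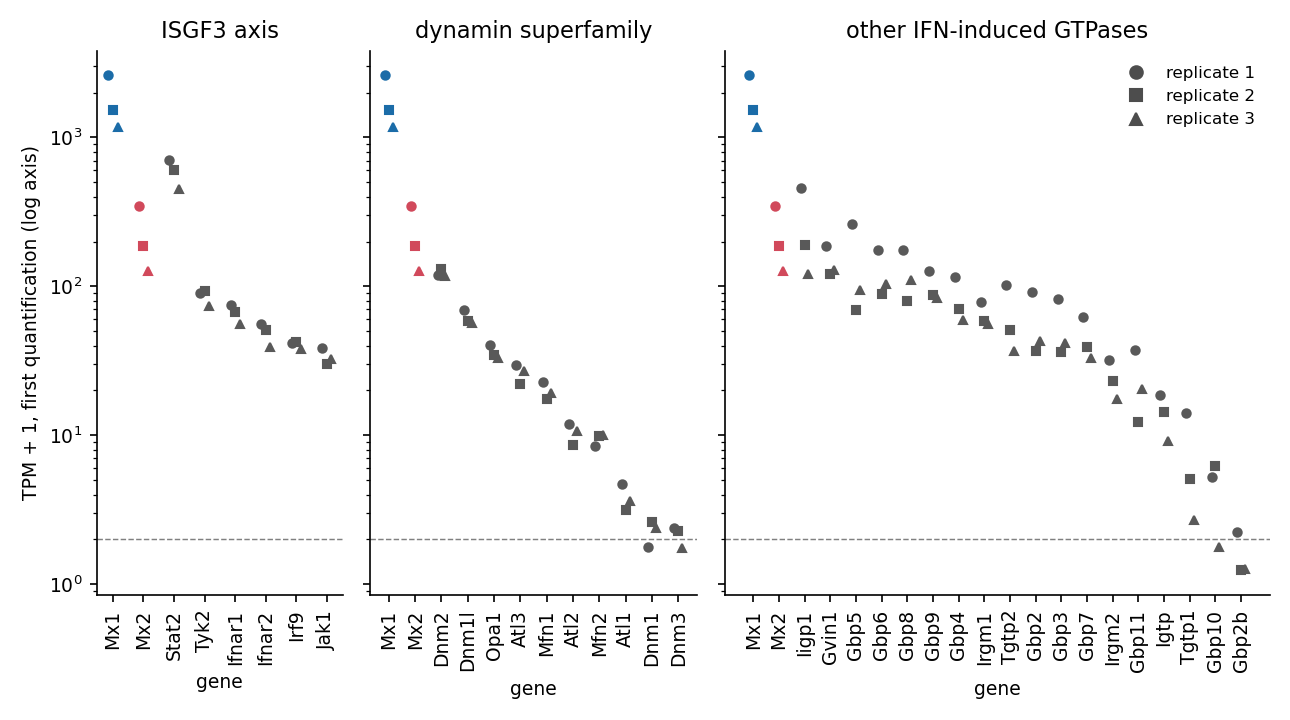
TPM + 1 in the first quantification (log axis) of Mx1 (blue), Mx2 (red) and genes of 3 lists (grey) in each library, with the detection limit of 1 TPM as a dashed line. Mx1 lies above every gene shown in every library, and Stat2 is the gene of the lists shown that lies above Mx2 in all 3 libraries.

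On chromosome 16 the high levels stopped at the pair itself. Between Mx1 and Mx2 lie 2210009P08Rik, Gm9242 and Gm24777, all at 0 TPM in the first quantification, and Fam3b, at 0.53, 0.68 and 0.10 TPM on 5, 7 and 1 counts. Before Mx1 lie AC167169.1, Bace2 and Gm49681, with means of at most 0.02 TPM. The first gene after Mx2 is Tmprss2, which encodes a protease that cleaves influenza hemagglutinin. It had 5.50, 2.57 and 1.58 TPM on 221, 126 and 94 counts, and so was highest in replicate 1 and lowest in replicate 3 at a far lower level. Ripk4 was at 0 and Prdm15 at 9.04 ± 2.1 TPM.

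Markers of the labelled cell type were present: all 10 macrophage genes were detected, against 44.0% of protein-coding genes, with summed levels of 1388 to 1452 TPM. None of 8 neutrophil and 6 fibroblast genes was detected, with sums of 0.51 to 0.99 and 0.01 to 1.5 TPM, and 1 of each was in the second quantification, Mpo and Col1a1. Of 8 dendritic cell genes 3 were detected (summed 127.8 to 198.1 TPM), which include Bst2 and Tcf4, while Siglech, Flt3 and Xcr1 were at most 0.12 TPM; 5 were detected in the second quantification, Siglech included. Of 7 T cell genes Cd4 and Cd28 were detected (20.1 to 29.6 TPM summed), with Cd3e at 0. In the second quantification 4 were, since Cd3d had 14.4, 7 and 14.9 TPM and Cd8a 2.20 ± 0.34 TPM there, against 0.03 and 0.12 TPM in the first. Of 6 B cell genes 1 was detected (2.38 to 8.84 TPM), Cd22, with Pax5 at 0. Of 6 endothelial genes 3 were detected (25.4 to 42.8 TPM), Vwf at 27.9 ± 5.6, Kdr at 4.74 ± 4.1 and Pecam1 at 1.61 ± 0.53 TPM, with Cldn5 at 0. Of the 7 marker lists 5 had summed levels that were highest in replicate 1 and lowest in replicate 3, as Mx1 and Mx2 were: macrophage, neutrophil, dendritic cell, T cell and B cell. The neutrophil sums lay under 1 TPM, so their order rests on few reads. The macrophage sums were close, at 1452, 1406 and 1388 TPM. Of the 10 macrophage genes 4 were in that order, against 19.4% of detected protein-coding genes. The part of these lists in the spread of the pair was not tested.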

How the data were processed

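Chromatin-fraction RNA was measured in 3 libraries of 1 group. Per the file headers, the deposited gene table and first transcript table hold expected counts and TPM in columns named as RSEM names them, and the second transcript table holds estimated counts and TPM named as kallisto names them. The notes deposited with the files give mm10 and GENCODE M21. No aligner, program version or use of strand is given in the sources used here. The 55536 annotated of 81881 rows were used. The others, which held 1.75%, 0.396% and 0.239% of expected counts, stayed out. Expected counts came to 13502401, 17848798 and 17824176, and second-table counts to 20661903, 32013772 and 30098148. Replicates differed beyond sampling noise (chi-square per degree of freedom 19.3 to 36.8 over genes with at least 10 counts, without the ribosomal locus), so each counts as 1.

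Levels are TPM as the authors deposited them, averaged over libraries, and log2 values use TPM + 1. The second table was summed per gene. Frames and junction windows were read from GENCODE M21 transcripts, starting at the annotated coding start. Detection means at least 1 TPM in every library. Named genes are the members with all transcripts, the 2 to 4 highest of each list (of the ISGF3 axis all), chromosome and rank neighbours, and the 5 nearest by likeness. Other genes named from a list illustrate its count. Some genes that this rule names are not reported here, though counts over a list include them. The members and lists were chosen with earlier results of these data known, and no test was run. The promoters of the pair, and motifs in them, were not analysed here. Alternatives were each replicate left out, posterior mean TPM, the second table, TPM over protein-coding genes, CPM, and other limits and pseudocounts. Python 3 with numpy, pandas and Biopython was used, and the code was tested on simulated data.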

Additional observations from a re-analysis of the deposited data

How the results depend on the processing

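The 11 summary values were recomputed under 76 alternatives in all. Of these, 67 stayed within 1 SD of the value given or, for counts, ranks and CVs, within 1.5 times of it. Only the log2 difference between Mx1 and Mx2 could change sign, and it stayed positive, between 2.94 and 3.12. The other values are levels, shares, CVs, ranks and counts, which cannot be negative, so a change of direction could not be tested for them. With 1 replicate left out the CV ranged from 18.8% (without replicate 1) to 53.7% (without replicate 2) for Mx1 and from 28.1% to 66.4% for Mx2 in the same settings, and Mx2 ranked from 112 (without replicate 3) to 230 (without replicate 1). Scaling TPM to protein-coding genes only, which takes small RNAs and the ribosomal locus out of the total, gave means of 6386 for Mx1 and 788.1 for Mx2. Ranked among all annotated genes of at least 300 bases Mx1 was 13th. Mx1-205 had 37.2% of the Mx1 TPM in the first quantification and 2.68% in the second, where Mx1-208 led. By expected counts, an alternative added after seeing the data, Mx1-205 held 63.1% of Mx1 and Mx2-202 held 88.3% of Mx2, against 60.7% by TPM. No paired analysis was possible because all 3 libraries belong to 1 group. The 3 libraries of 1 group limit each SD and CV, and the apportioning of reads limits the transcript values beside depth.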

Other observations

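Genes that limit interferon signalling and genes of other proteins that act on influenza infection were also read in these libraries. All 7 feedback genes were detected, against 44.0% of protein-coding genes. Ptpn6, a phosphatase of immune receptors, had 82.4 ± 17 TPM, Usp18 had 103.2, 51.0 and 40.3 TPM, and Isg15, the ubiquitin-like modifier, had 78.1, 51.5 and 60.6 TPM. Socs1, the suppressor of Jak kinases, was low at 2.40 ± 1.1 TPM. Of 12 genes of the influenza list 11 were detected, against the same 44.0%. Rsad2, which encodes viperin, was the highest at 784.7, 317.4 and 302.2 TPM, and Uba7, the activating enzyme of Isg15, followed at 428.8, 553.5 and 390.4 TPM. Eif2ak2, the kinase PKR that senses double-stranded RNA, had 181.7 ± 60.8 TPM. Ddx39b, a helicase known as a partner of Mx proteins, had 154.9 ± 27.7 TPM. Rsad2 and Eif2ak2 were highest in replicate 1 and lowest in replicate 3, as Mx1 and Mx2 were, whereas Uba7 was highest in replicate 2.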
